A study of Mus musculus with 6 samples.

Results

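Pdhb and Suclg1 encode subunits of mitochondrial enzymes that act on either side of acetyl-CoA, and both transcripts were measured in the hearts of wild-type and Pgc1b knockout mice. Each gene was read by 1 probe set with values, chosen as every probe set with a value whose single gene symbol in the platform annotation is Pdhb or Suclg1. These were 2 of the 643 gene probe sets with values, which cover 494 genes with 1 symbol. A further probe set of Pdhb on the array was not analysed here. Pgc1b, named Ppargc1b in current tables, encodes a coactivator that works with nuclear receptors on genes of mitochondrial metabolism. Whole hearts of 3 wild-type mice and 3 Pgc1b knockout mice were compared, with 1 Affymetrix array a heart. All 6 animals had a mixed sv129 and C57BL/6 background and free access to food, and the labels give no age. The labels name the knockout by genotype only and refer to an earlier account of how the mice were made.

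Pyruvate made by glycolysis or from lactate enters mitochondria and is turned into acetyl-CoA by the pyruvate dehydrogenase complex. Pdhb is the beta subunit of the decarboxylating component of that complex, which works as a tetramer with the alpha subunit Pdha1. Acetyl-CoA, from pyruvate or from fatty acids, is then oxidised in the citric acid cycle. Suclg1 is the alpha subunit of succinyl-CoA ligase, the step of the cycle that forms ATP or GTP directly. It pairs with the beta subunit Sucla2 in the ATP-forming enzyme and with Suclg2 in the GTP-forming one. The adult heart draws most of its ATP from mitochondria, and oestrogen-related receptors, partners of the Pgc1 coactivators, are known to bind near many genes of these pathways.

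The sequences upstream of both genes are shown as a description, and a link between them and the transcript levels was not tested. They are the 250 bases before the RefSeq start in GRCm38.p6, 5′ to 3′ on the gene's strand, at chr14:8172993-8173242 (minus strand) for Pdhb and chr6:73248255-73248504 (plus strand) for Suclg1. Both genes matched the RefSeq promoter table. Capitals mark matches to CCAAT or its reverse complement and to GGGCGG or its reverse complement.
Pdhb: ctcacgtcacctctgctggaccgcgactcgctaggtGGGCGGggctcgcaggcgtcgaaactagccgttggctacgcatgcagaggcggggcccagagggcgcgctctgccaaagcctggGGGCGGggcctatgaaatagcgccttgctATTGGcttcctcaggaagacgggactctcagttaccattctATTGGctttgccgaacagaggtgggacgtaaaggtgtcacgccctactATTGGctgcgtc
Suclg1: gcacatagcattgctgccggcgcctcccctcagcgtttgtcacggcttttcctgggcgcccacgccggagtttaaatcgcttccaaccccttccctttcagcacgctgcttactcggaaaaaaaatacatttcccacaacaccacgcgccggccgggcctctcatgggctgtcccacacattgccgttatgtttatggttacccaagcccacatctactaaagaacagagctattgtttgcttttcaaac
Motifs were searched on both strands. The oestrogen-related receptor element TNAAGGTCA, which contains the AGGTCA core bound by nuclear receptors, was in neither window, and was in 1.14% of all 32851 RefSeq promoters of this length. AGGTCA itself was in neither, with 14.0% of promoters holding it. The NRF1 core GCGCANGCG (5.16% of promoters), the ETS site CCGGAAG (6.91%) and the YY1 site AANATGGCG (1.12%) were also in neither. CCAAT and GGGCGG were added to the search after the sequences had been read. Pdhb held CCAAT 3 times, each on the opposite strand and beginning 101, 60 and 12 bases before the start. At least 1 CCAAT was in 33.8% of promoters, and 3 or more in 2.79%. GGGCGG was found 2 times upstream of Pdhb, beginning 214 and 130 bases before the start, and 16.7% of promoters held it at least that often. Suclg1 held neither motif. GC content was 61.6% for Pdhb and 53.2% for Suclg1, against a median of 52.4% over all promoters, and CpG dinucleotides numbered 20 and 15 against a median of 6. Matches of letters describe these windows only and do not show binding.

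The arrays were alike as a whole. Medians over the 643 gene probe sets lay between 7.45 and 7.61 on the log2 scale, and arrays correlated at 0.993 to 0.997 across genes, which are not independent replicates. The targeted transcript, Ppargc1b, was not analysed here and could not serve as a check on the genotypes. Actc1, the cardiac actin, had the highest mean of all 643 gene probe sets, 14.11, and Actc1 and the gap junction gene Gja1 were the 2 of 20 heart muscle genes with values. Of the markers of other cell types, values were present for 2 of 8 red cell genes and 1 of 7 endothelial genes, and those of fibroblasts, smooth muscle, leukocytes, fat and skeletal muscle were not analysed here. The mean of the 3 red cell probe sets ran from 5.52 to 5.75 in wild-type and from 5.69 to 6.17 in knockout hearts (exact permutation p = 0.2, two-sided), and its part in the results was not tested. The endothelial gene Tie1 stood at 7.60 to 7.73 and 7.48 to 7.74.

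Pdhb was lower in every knockout heart than in any wild-type heart. Its level was 12.32, 12.29 and 12.24 on the log2 scale in wild-type replicates 1 to 3. In knockout replicates 1 to 3 it was 11.94, 12.04 and 12.03. The groups were separated by 0.20, more than the SD within either genotype. The wild-type mean was 12.28 ± 0.04 and the knockout mean 12.01 ± 0.05 (SD, n = 3 each). Knockout hearts thus differed from wild-type hearts by -0.28 ± 0.07 in log2 units (SE, n = 3 each; 95% interval -0.44 to -0.12). This put the knockout level at 82.4% of wild type, with an interval of 73.7% to 92.2%. Limma gave an unadjusted p = 0.00441, the 9th smallest of 643, and an adjusted p = 0.298 after Benjamini-Hochberg adjustment over all 643. The exact permutation p was 0.1, the smallest that 3 hearts against 3 allow.

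Suclg1 was lower as well, with a wider spread between hearts. Its level was 11.06, 11.05 and 10.91 in wild-type replicates 1 to 3. It was 10.63, 10.84 and 10.84 in knockout replicates 1 to 3. The groups did not overlap, but wild-type replicate 3 lay only 0.07 above the highest knockout heart, less than the SD of either genotype. The means were 11.01 ± 0.08 and 10.77 ± 0.12 (SD, n = 3 each). The difference was -0.24 ± 0.09 (SE, n = 3 each; 95% interval -0.44 to -0.03), or 84.9% of wild type (interval 73.6% to 98.1%). Limma gave an unadjusted p = 0.0309 and an adjusted p = 0.442, and the exact permutation p was 0.1. In the fits without wild-type replicate 1, without wild-type replicate 2 and without knockout replicate 1 the interval of Suclg1 included 0, and without knockout replicate 1 the difference was -0.16.

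**Figure D1:**
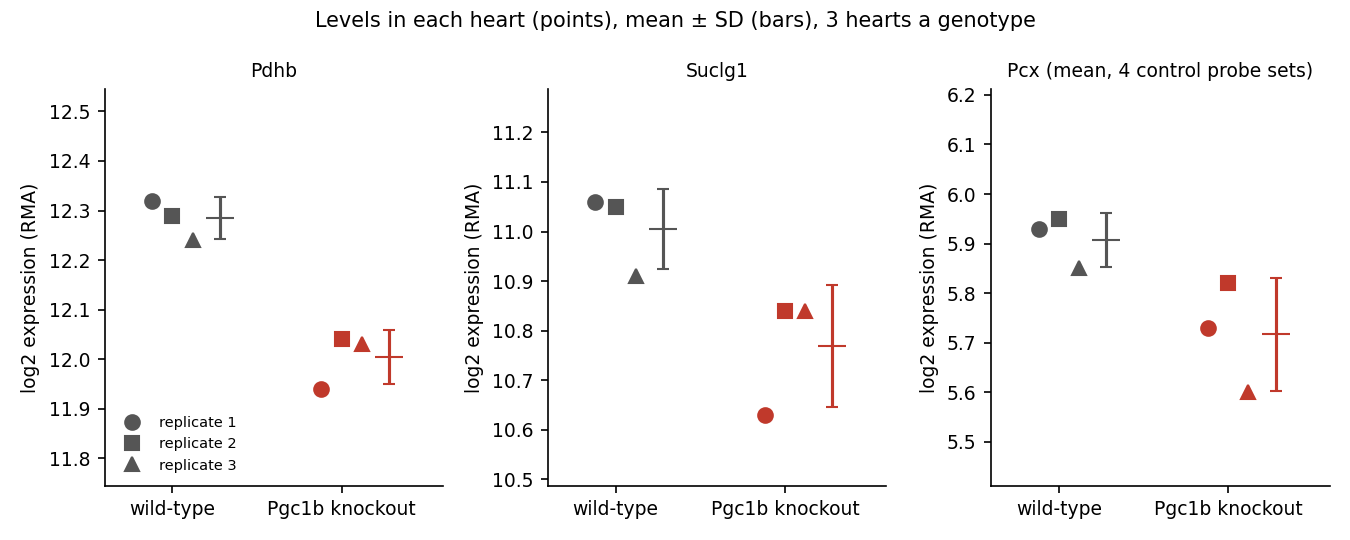
Log2 expression of Pdhb, Suclg1 and the mean of 4 control probe sets of Pcx in each heart, with replicates as symbols and bars for mean ± SD of 3 hearts a genotype. Each panel spans the same log2 range, and in each all knockout hearts lie below all wild-type hearts, with the widest gap in Pdhb (0.20) and a narrower one in Suclg1 (0.07). The gap is narrowest in Pcx, between wild-type replicate 3 at 5.85 and knockout replicate 2 at 5.82. Taken singly, the 3′ and 5′ probe sets of Pcx overlap.

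Neither of the 2 members passed the adjusted threshold of 0.05 in limma, which 0.0% of the 643 probe sets passed. At an unadjusted p under 0.05 in limma, 66 of the 643 probe sets, or 10.3%, differed. Both members had a lower level at an unadjusted p under 0.05, where 4.98% of all probe sets did, and in both the knockout hearts lay below the wild-type hearts without overlap, where 9.02% of all probe sets did. By size, Pdhb had the 19th and Suclg1 the 32nd lowest difference. The median difference over all 643 was 0.01, and 90% of the differences lay between -0.23 and 0.26. Both members are bright, with 27 probe sets above Pdhb and 55 above Suclg1 in mean level. Among the 88 probe sets with a mean of at least 10, a limit set after the values had been seen, 4 had a lower difference than Pdhb and 6 a lower one than Suclg1. Groups without overlap and lower in knockout made up 18.2% of these 88, or 16 probe sets, of which 2 were the members and 7 belonged to the respiratory chain, ATP synthase and carriers. RNA came from whole hearts, so fewer cells of a type and less RNA per cell cannot be told apart.

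The profiles of the members across hearts were alike, which includes the genotype difference that each shows. Relative to its mean over the 6 hearts, Pdhb stood at 0.18, 0.15 and 0.09 in wild-type and -0.20, -0.10 and -0.11 in knockout replicates 1 to 3. Suclg1 stood at 0.17, 0.16 and 0.02, and at -0.26, -0.05 and -0.04. In both genes wild-type replicate 3 was the lowest of its group and knockout replicate 1 the lowest of all. The latter is not particular to the pair. Knockout replicate 1 was also the lowest heart in Pfkp, Acadm, Ldhb and Cox8a, though not in Atp5o, Ndufc1 or Slc25a3. Its array had the lowest median of the arrays, 7.45. The log2 ratio of Pdhb to Suclg1 within a heart, which cancels any shift shared by a whole array, differed between the genotypes by -0.04, with SDs of 0.04 and 0.07 within wild-type and knockout hearts. It was -0.08 without knockout replicate 1 and -0.02 without knockout replicate 3, the ends of its range when single hearts were left out. The difference of -0.04 was about the size of the wild-type SD and was not tested.

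Some array controls were lower on the knockout arrays as well. The mean over 18 hybridisation spikes, bacterial and phage transcripts added before the array step, was 9.89 ± 0.23 for the wild-type arrays and 9.52 ± 0.18 for the knockout ones (SD, n = 3 each; exact permutation p = 0.1). With that level as a covariate, the difference of Pdhb was -0.24 (interval -0.50 to 0.02) and that of Suclg1 -0.19 (interval -0.52 to 0.15). The Actb control probe set at the 3′ end exceeded that at the 5′ end, a readout of RNA quality, by 0.75 ± 0.02 and 0.63 ± 0.11 (exact permutation p = 0.1). With it as a covariate the differences were -0.28 (interval -0.54 to -0.02) and -0.26 (interval -0.59 to 0.07). The spike level and this Actb readout were each lower on every knockout array than on any wild-type array. Fits with either as a covariate, here and below, therefore cannot tell it apart from genotype. The same readout of Gapdh was 0.08 ± 0.09 and 0.08 ± 0.11 (exact permutation p = 1.0). The poly-A spikes, added before labelling, differed by 0.06 (exact permutation p = 0.9). With them as a covariate the differences of Pdhb and Suclg1 were -0.28 and -0.23.

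Pyruvate has a second mitochondrial fate, carboxylation to oxaloacetate by pyruvate carboxylase, the product of Pcx. Of the 15 genes listed for the pyruvate dehydrogenase complex, its regulation and pyruvate import, with Pcx among them, Pdhb was the 1 gene measured by a gene probe set. Pcx was read by 4 control probe sets of the array. The mean of these 4 stood at 5.93, 5.95 and 5.85 in wild-type and 5.73, 5.82 and 5.60 in knockout replicates 1 to 3. All knockout hearts lay below all wild-type hearts, by a mean of -0.19 (exact permutation p = 0.1). These are dim signals: each of the 4 probe sets had means below 7, the limit of the filter used in an alternative fit. No detection calls were used. The probe sets for the middle of the transcript differed by -0.26 (interval -0.51 to -0.02) and -0.24 (interval -0.42 to -0.06), both without overlap. The 3′ and 5′ probe sets differed by -0.13 each, with overlap of the groups. When single hearts were left out the 3′ value ran from -0.18 to -0.07, the latter without wild-type replicate 2 and followed by -0.08 without knockout replicate 3. The 5′ value became -0.27 without knockout replicate 2, -0.04 without wild-type replicate 2, -0.07 without knockout replicate 1 and -0.05 without knockout replicate 3. The first middle probe set differed by -0.17 (interval -0.40 to 0.05) without knockout replicate 3. In a limma fit of all 707 probe sets with values, 0.0% passed the adjustment, and 9.9% were lower in knockout without overlap. With the hybridisation spikes as a covariate the 4 differences of Pcx were -0.08, 0.01, -0.06 and -0.15 for the 3′, 5′ and 2 middle probe sets, so the direction of the 5′ probe set turned.

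**Figure D2:**
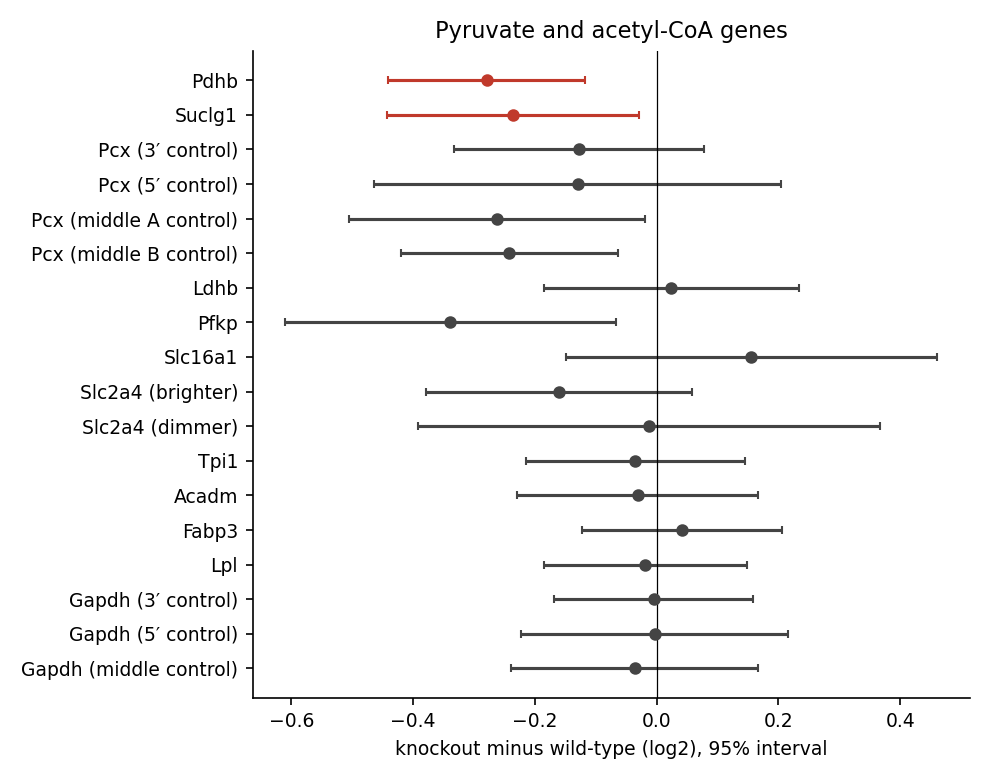
Log2 difference of knockout from wild-type hearts with its 95% interval from limma, 3 hearts a genotype. Pdhb and Suclg1 are red. Measured genes that supply pyruvate or acetyl-CoA, and Pcx, which uses pyruvate, are dark. The intervals of Pdhb, Suclg1, Pfkp and the middle probe sets of Pcx lie below 0, and the others include it.

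Genes that supply pyruvate were mixed. Of 20 listed genes of glucose uptake, glycolysis and lactate, 5 were measured by 6 gene probe sets, 4 with lower and 2 with higher means and a median difference of -0.02. None of the 6 passed the adjustment, and 1 had an unadjusted p under 0.05. That was Pfkp, the platelet-type phosphofructokinase, at 7.37, 7.47 and 7.63 in wild-type and 6.93, 7.22 and 7.29 in knockout hearts. Its groups did not overlap, and the difference was -0.34 (interval -0.61 to -0.07; limma adjusted p = 0.385), and -0.51 with the hybridisation spike covariate. For Slc2a4, the glucose transporter that responds to insulin, the brighter probe set differed by -0.16 (interval -0.38 to 0.06) and the dimmer by -0.01. Without knockout replicate 3 the brighter differed by -0.25 (interval -0.45 to -0.05), without knockout replicate 1 by -0.10, with the Actb covariate by -0.31 (interval -0.60 to -0.02) and with the hybridisation spike covariate by -0.29 (interval -0.61 to 0.03). The triose phosphate enzyme Tpi1 differed by -0.03. On the lactate side, Ldhb, the lactate dehydrogenase subunit typical of heart, differed by 0.02 (interval -0.19 to 0.23) and Slc16a1, a carrier of lactate and pyruvate, by 0.16 (interval -0.15 to 0.46). That of Slc16a1 was 0.28 (interval 0.02 to 0.54) without knockout replicate 1, 0.07 without wild-type replicate 3, 0.06 without knockout replicate 3 and 0.04 with the Actb covariate. Tpi1, Ldhb and the dimmer probe set of Slc2a4 changed sign in some of the alternative fits. The glycolytic enzyme Gapdh, read by 3 control probe sets, averaged 13.47 ± 0.05 and 13.46 ± 0.09 in the wild-type and knockout groups (SD, n = 3 each; exact permutation p = 0.8).

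Fatty acids are the other source of acetyl-CoA in heart. Of 20 listed genes of fatty acid supply and oxidation, 3 were measured, with differences from -0.03 to 0.04, a median of -0.02 and overlap of the groups in each. Acadm, the medium-chain acyl-CoA dehydrogenase, stood at 12.39, 12.38 and 12.32 in wild-type and 12.19, 12.42 and 12.39 in knockout hearts. Only knockout replicate 1 was below the wild-type range, and without it the difference of -0.03 became 0.04. In the citric acid cycle itself Suclg1 was the 1 gene measured of 17 listed, and of 10 listed for other uses and sources of succinyl-CoA, such as ketone use and haem synthesis, values were present for 0.

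Electrons from pyruvate dehydrogenase and the cycle pass to the respiratory chain, where 15 probe sets for 13 genes of complexes I and IV, ATP synthase and the phosphate carrier had values. Of these 15, 14 had lower means in knockout hearts, against 45.7% of all 643, and in 13 the difference was below -0.01. The median difference was -0.14 against 0.01 over all 643. The groups were lower without overlap in 8 of the 15, against 9.02% of all 643 and 18.2% of those with a mean of at least 10. Cox8a was among the 8 by a gap of only 0.0017. The 18.2% counts 7 of these probe sets and the members. Of the 72 probe sets with a mean of at least 10 outside both, 7 (9.72%) were lower without overlap. At an unadjusted p under 0.05 in limma 5 of the 15 were lower, against 4.98% of all 643, and 0 passed the adjustment. Only 2 of the 15 had a lower difference than Pdhb, and the same 2 a lower one than Suclg1. They were Cox8a, a subunit of cytochrome c oxidase, at -0.32 (interval -0.63 to -0.02; -0.55 with the hybridisation spike covariate), and Atp5o, a subunit of the ATP synthase stalk, at -0.28 (interval -0.43 to -0.13). These comparisons use the same hearts as those of Pdhb and Suclg1 and are not independent of them. The members and the lists were also chosen with earlier results of these data known, so the shares are a description only.

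**Figure D3:**
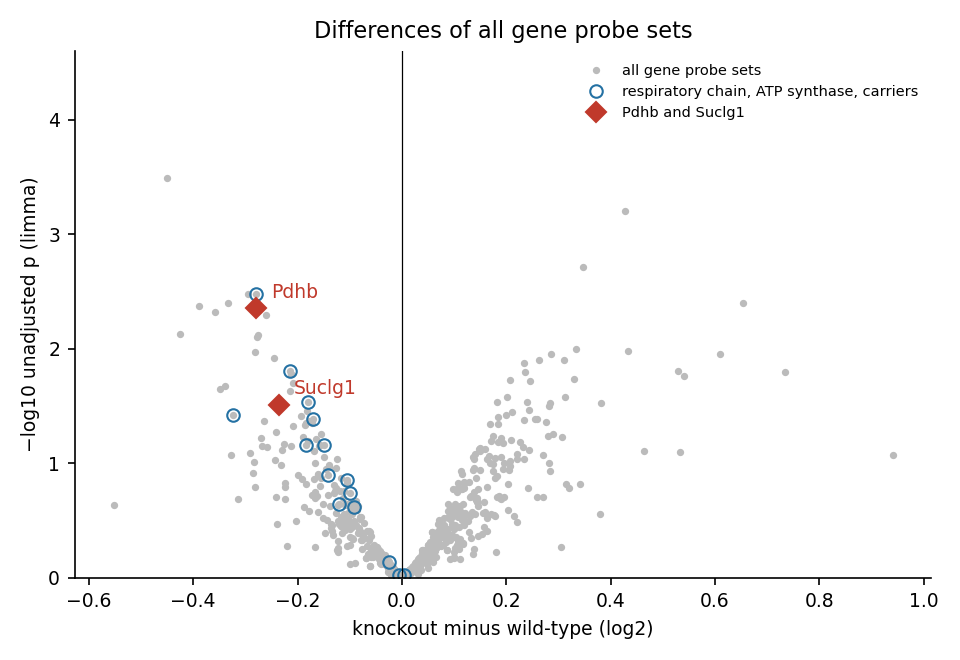
Log2 difference of knockout from wild-type hearts for each of the 643 gene probe sets, against −log10 of the unadjusted limma p, with Pdhb and Suclg1 as red diamonds and the 15 probe sets of the respiratory chain, ATP synthase and carriers as open circles. Pdhb (-0.28) and Suclg1 (-0.24) lie on the lower side among 14 of the 15 circles, and other grey points reach larger differences in both directions.

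The profiles most like those of the members were found by the root-mean-square distance of log2 values over the 6 hearts, after each probe set's mean had been subtracted. Against Pdhb, the nearest of 596 other probe sets with 1 gene symbol was Cstf2t, which acts in forming the 3′ ends of mRNAs, at a distance of 0.02, where the median was 0.19. It was followed by Tmem129, a ubiquitin ligase in the ER membrane, Suclg1, the ATP synthase subunit Atp5j2 and Mrpl28 of the mitochondrial ribosome, at 0.05 to 0.06. Against Suclg1 the order was Cstf2t at 0.03, then Mrpl28, Pdhb, Tmem129 and the complex I subunit Ndufv1 in its dimmer probe set, at 0.05 to 0.06. Each member was thus the 3rd nearest of the other. These genes differed by -0.28 for Cstf2t, -0.33 for Tmem129, -0.21 for Atp5j2, -0.19 for Mrpl28 and -0.18 for Ndufv1, the last pair by -0.12 and -0.10 with the hybridisation spike covariate. Among the 20 nearest profiles, 6 for Pdhb and 3 for Suclg1 were from the respiratory chain, ATP synthase and carriers, which made up 15 of the 596. The distance covers the genotype difference as well as the spread within it, so it favours probe sets that also differ between genotypes. Of the 20 nearest to Pdhb 19 were lower in knockout without overlap, and of the 20 nearest to Suclg1 9 were. Among all 643 the share was 9.02%. These counts follow in part from how the neighbours were chosen and are no separate result about either gene.

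The direction of both members was the same in the 17 other fits that were run. The difference of Pdhb ran from -0.32 with arrays centred on their medians to -0.24 with the hybridisation spike covariate, and its interval included 0 in 1 of the 17. That of Suclg1 ran from -0.28 without wild-type replicate 3 to -0.16 without knockout replicate 1, and its interval included 0 in 6 of the 17. The adjusted p stayed above 0.05 in each fit, with 0.0695 for Pdhb and 0.235 for Suclg1 as the lowest values, both from limma-trend, whose prior variance depends on mean level, and 0.721 and 0.759 as the highest.

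**Figure D4:**
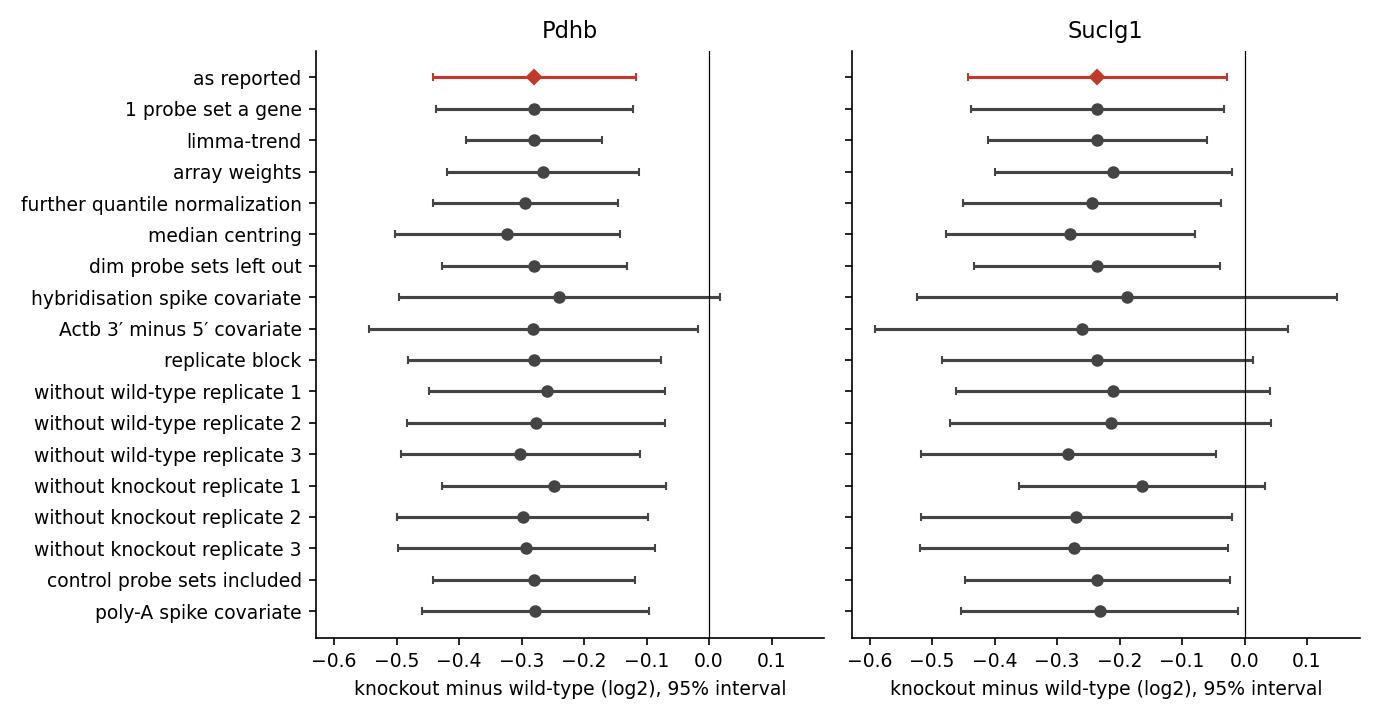
Log2 difference of knockout from wild-type hearts, with 95% intervals from limma, of Pdhb and Suclg1 as reported (red) and in 17 other fits (dark). Every value lies below 0, from -0.32 to -0.24 for Pdhb and from -0.28 to -0.16 for Suclg1, and the intervals cross 0 in 1 and 6 fits. Fits that change only the variance prior, the set of probe sets or the replicate block repeat the reported value by construction.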

How the data were processed

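Total RNA of 6 whole hearts was amplified in a whole-transcriptome step and again during labelling, per the labels' protocols, and hybridised to 1 array a heart. The deposited values are log2 expression; the submitters' processing notes name RMA, GCOS and Partek, and versions and genome build are not given in the sources used here. RMA sets arrays to a common distribution, so differences are relative to other genes. Of 45101 rows, 707 had values (643 gene and 64 control probe sets), and the rest were not analysed here. The platform annotation, which can be old, gave 1 symbol for 597, several for 26 and none for 20 of the 643, and all 597 matched RefSeq (GRCm38.p6) by gene ID. Every probe set was fitted in limma 3.58.1 (R 4.3.3, lmFit and eBayes, two-sided) on the values as deposited, without filter or covariate, with Benjamini-Hochberg adjustment over 643 and a threshold of 0.05. The fit was tested on simulated data. Arrays have no read depth, and their number limits the precision. Named genes are the members, measured genes of fixed pathway lists and the 5 profiles nearest to each member. The members and lists were chosen with earlier results of these data known. Gapdh, Actc1, Gja1, Tie1, Ndufc1 and Slc25a3 were among the genes not followed through the alternatives. These were other priors, weights, scalings, a filter at a mean of 7, covariates, a replicate block, 1 probe set a gene and each heart left out, with the fit of all 707 probe sets and the poly-A spike covariate added after the data were seen.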

Additional observations from a re-analysis of the deposited data

How the results depend on the processing

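With 3 hearts a genotype, 494 genes and 1 probe set a member, no second probe set checks either gene, and no detection calls were used. Of 20 named probe sets followed, Pdhb and Suclg1 among them, 15 kept their direction in each alternative run. Alternatives that cannot move a difference, such as limma-trend and the replicate block, count among these runs. Atp5o passed the adjustment under limma-trend (adjusted p = 0.0274, and up to 0.721 in the others), in which 2 probe sets were called, against 0 in limma as reported and in the other alternatives. The 14 probe sets at an unadjusted p under 0.01 became 23 under limma-trend, 26 with array weights, 4 with the Actb covariate and 7 to 21 when single hearts were left out, with 8 when wild-type replicate 2, 7 when knockout replicate 2 and 9 when knockout replicate 3 was missing. The difference of Pdhb minus Suclg1 within hearts ran from -0.0839 to -0.0194. Signs turned for Ldhb with median centring (-0.0198), the hybridisation spike covariate (-0.0785) and the Actb covariate (-0.0818), for Acadm (0.000154) and the 5′ probe set of Pcx (0.0107) with the hybridisation spike covariate, for that of Pcx with the Actb covariate (0.0940), and for the dimmer probe set of Slc2a4 with array weights (0.0719) and the poly-A covariate (0.0154). When single hearts were left out the ranges were -0.0899 to 0.00547 for Tpi1, -0.185 to 0.138 for the dimmer Slc2a4, -0.0547 to 0.0878 for Ldhb and -0.0743 to 0.0415 for Acadm. The cause was not tested.

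The labels number the hearts 1 to 3 in each genotype without saying that numbers pair hearts. Same-numbered hearts had correlations of -0.239, -0.101 and 0.193 between their deviations from the group means, and 2 of 6 hearts matched best with their own number. With the replicate number as a block the differences, which a balanced block cannot change, were -0.279 for Pdhb and -0.235 for Suclg1. Their intervals, which it can change, were -0.481 to -0.0775 and -0.484 to 0.0129. With the block 0 probe sets were called, as without it.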
